A study of Mus musculus with 8 samples.

Results

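The genes described here encode the basement membrane and the receptors that hold cells to it: 11 integrin alpha chains, 6 integrin beta chains, 10 laminin chains, the 6 chains of collagen IV, the linkers Nid1, Nid2, Hspg2 and Agrn, and a group of 5 made of the integrin alpha8 ligands Npnt and Egfl6 with the Fraser complex genes Fras1, Frem1 and Frem2. They number 42, beside 29544 genes that were tested in all, and were taken as the probes whose gene name in the scanner files equals one of these names, with 1 probe per gene (the one of highest mean level). On 29 of the 42 the probe was well above background on all 8 arrays, on 10 it was on some, and Itga7, Lamc3 and Col4a3 were not well above background on any array and were not tested.

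Cells were sorted by flow cytometry from ICR mouse embryos that carried a green fluorescent reporter, and each sort was measured on 1 one-colour Agilent array. Precursors of the ureteric bud, the epithelial tube that becomes the collecting system of the kidney, were sorted by Hoxb7-GFP at E8.75 (1 array, whole embryo, with no Flk1 selection stated), at E9.5 and E10.5 as Flk1-negative cells of the rostral and the caudal part of the WD (1 array each), and at E11.5 as Flk1-negative cells of the ureteric bud (1 array). The comparison cells were Wt1-GFP positive cells of E9.5 embryos, again 1 rostral and 1 caudal array, with no Flk1 selection stated; the series describes them as intermediate mesoderm that gives rise to nephron progenitors. The Hoxb7-GFP cells are called duct cells below. The labels do not say how many embryos were pooled or whether arrays came from separate litters, so every p-value measures only the spread between these arrays. No sort of the same stage, reporter and part was repeated. In the main fit a gene's residual spread comes from how far the rostral-caudal differences of the 3 split sorts disagree. The single E8.75 and E11.5 arrays add nothing to it and are assumed to vary like the others.

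A basement membrane is a thin sheet of matrix under an epithelium. Laminins, each a trimer of an alpha, a beta and a gamma chain, form one network on the cell surface and collagen IV forms another. Nidogens, perlecan (Hspg2) and agrin bridge the networks, and integrins, each a pair of an alpha and a beta chain, connect them to the cytoskeleton. In the kidney, integrin alpha8 beta1 on mesenchyme binds nephronectin (Npnt) in the basement membrane of the ureteric bud, and mice that lack either, or the Fraser complex genes Fras1 or Frem2, can fail to form kidneys.

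Levels are log2 of the processed intensity minus the log2 of that array's 75th percentile, so 0 is the 75th percentile and 1 is a doubling; a level on one probe is not comparable with a level on another. On these arrays 60.6% to 69.2% of all probes were well above background, and the dimmest such probe of an array lay between -5.35 and -3.95. As a check of the sorts, 9 of 10 duct markers were higher on both E9.5 duct arrays than on both Wt1-GFP arrays, with means at least 1 log2 unit apart, and the probe for Wt1 read 4.08 and 4.01 on the Wt1-GFP arrays against -6.92 to -0.20 on the duct arrays. Of 10 nephrogenic and coelomic mesoderm markers, Wt1 among them, 8 were higher on the Wt1-GFP arrays by the same rule. Cited1 went the other way, with 4.63 and 3.46 on the E9.5 duct arrays but 1.23 and 2.75 on the Wt1-GFP arrays. Eya1 was level, with a log2 difference of -0.08. All 10 endothelial markers were lower on both E9.5 duct arrays than at E8.75; the log2 of their summed signal was 5.53 at E8.75, 2.10 to 2.70 in later duct samples and 2.46 and 2.38 in Wt1-GFP cells, and Kdr, which encodes Flk1, read 4.12 at E8.75 and 1.47 to 1.95 thereafter. The 8 fibroblast-like mesenchyme markers were all higher in Wt1-GFP cells, with a summed signal of 6.24 and 5.32 against 0.78 to 3.40 on the duct arrays. Neural and neural crest markers stood out on the E9.5 rostral duct array, with a summed signal of 6.68 against 2.74 to 4.45 on the other duct arrays and 2.55 and 1.32 in Wt1-GFP cells; Tubb3 read 6.45 and Stmn2 3.47 there. Of 9 such markers tested, 4 were separated on the duct side at E9.5 and 0 on the other, and their part in the E9.5 values was not tested. In sorted bulk RNA, fewer cells of a type and less RNA per cell cannot be told apart.

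The heat map of all members shows 3 kinds of pattern: genes that were bright in the duct and dimmer in Wt1-GFP cells, genes that were bright in Wt1-GFP cells and dimmer on the older duct arrays, and genes that were nearly level.

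**Figure D1:**
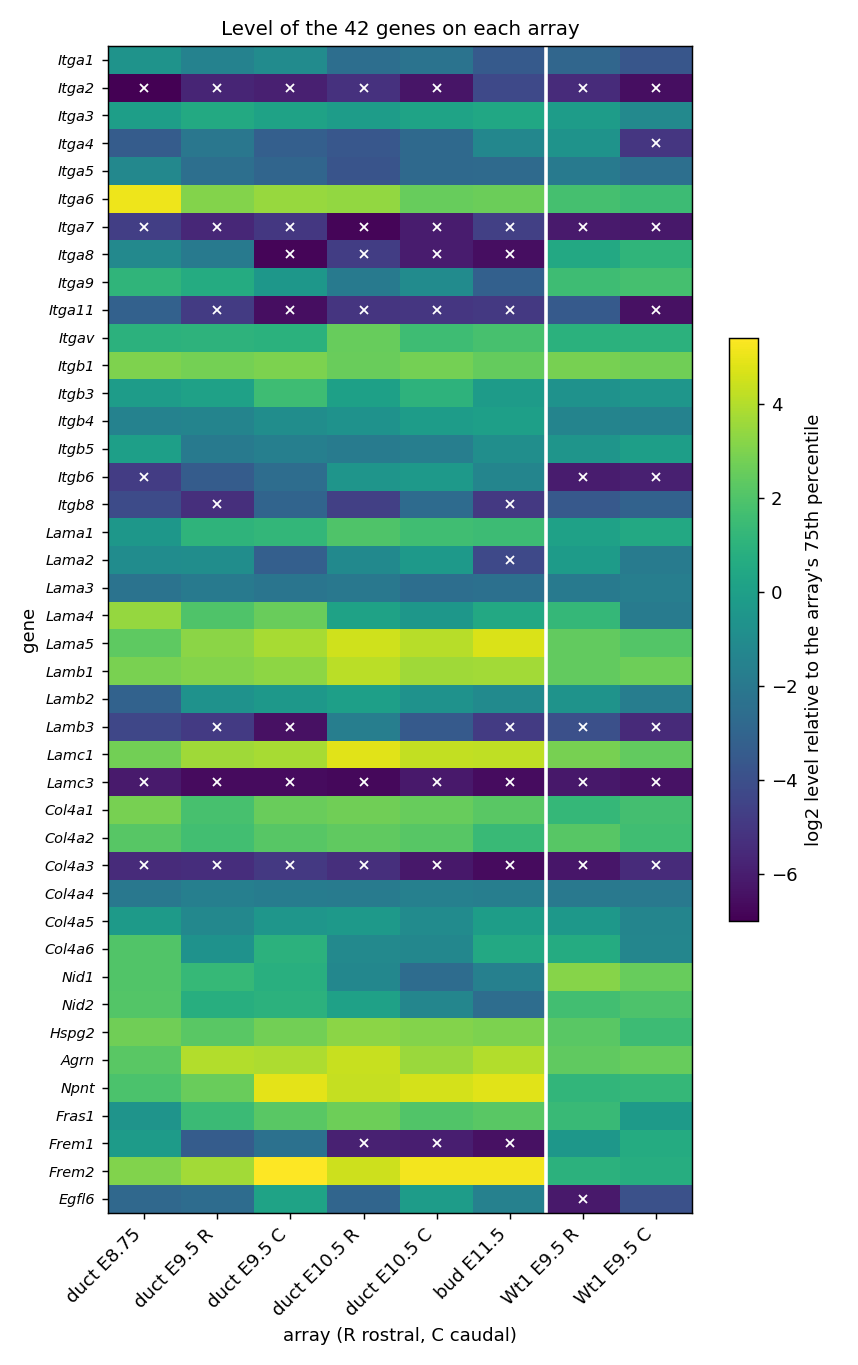
Levels of the 42 genes (rows, grouped by role) on the 8 arrays (columns; R rostral, C caudal), as log2 relative to the array's 75th percentile; a white cross marks an array on which the probe was not well above background. Npnt and Frem2 are brightest in the duct columns, Itga8, Nid1 and Frem1 in the Wt1-GFP columns right of the white line, and the rows of Itga7, Lamc3 and Col4a3 are crossed throughout.

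Between E9.5 duct cells and E9.5 Wt1-GFP cells, the comparison that the series design names, the members on the duct side were Npnt, Egfl6, Frem2, Fras1, Itgb6, Itga6, Itga1, Itgb3, Lama5, Lama4, Lamc1 and Agrn. Those on the Wt1-GFP side were Itga8, Itga9, Itgb5, Nid1 and Frem1. In each of these 17 the arrays were separated, that is, both arrays of one group lay above both arrays of the other and the group means differed by at least 1 log2 unit. Separation on the duct side was seen for 12 of 39 tested members and for 7.76% of all genes tested, and on the Wt1-GFP side for 5 of 39 and 5.57%. The median difference was 0.31 over the members and -0.05 over all genes. No member and 0% of all genes passed limma's test with Benjamini-Hochberg adjustment (lowest adjusted p = 0.17); at an unadjusted p under 0.05 there were 16 members and 3934 genes (13.3%). When limma's variance prior followed the intensity, Itgb6, Frem2 and Egfl6 passed on the duct side (0.988% of all genes) and Nid1 and Frem1 on the Wt1-GFP side (1.15%), with adjusted p between 0.025 and 0.050.

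Those counts rest on 2 arrays a group. The number lower in the duct rose without the E9.5 rostral duct array and without the caudal Wt1-GFP array. A group of 1 array is easier to separate for any gene, so this rise is not a result about the members. The E9.5 duct arrays lay in the first of 2 rows of the slide and the Wt1-GFP arrays in the second, with the E10.5 caudal and E11.5 duct arrays. Within the second row those 2 duct arrays stood on the same side of both Wt1-GFP arrays for 15 of the 17 genes; Itga1 and Lama4 overlapped. Blocking on the slide row, the sign was kept for all 17, none passed (adjusted p 0.64 to 0.97), and the log2 difference was smaller by over 1.5 times for Itga9 (-0.19), Itga6 (0.76), Agrn (0.63), Lama5 (0.71), Lamc1 (0.63) and Npnt (1.66). Only the E10.5 duct pair had an array in each row, so the fitted row term rests on that pair. Blocking therefore cannot tell slide row from cell type in this comparison.

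**Figure D2:**
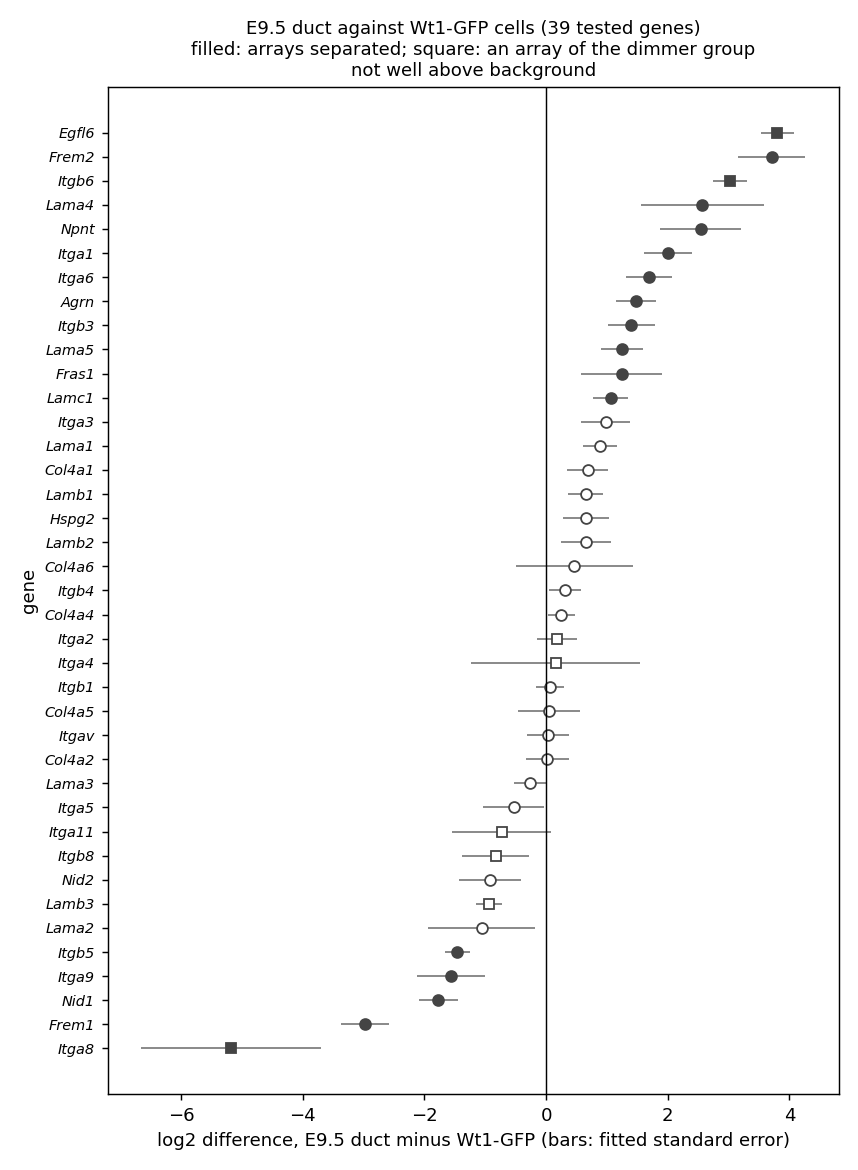
Difference of each of the 39 tested genes between E9.5 duct and E9.5 Wt1-GFP cells (log2, duct minus Wt1-GFP; bars are the fitted standard error, 2 arrays a group); filled symbols are genes with separated arrays and squares are genes whose dimmer group had an array not well above background. Egfl6 (3.80) and Frem2 (3.71) lie farthest to the right and Itga8 (-5.18) farthest to the left.

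The integrin alpha8 receptor and its ligands lay on opposite sides of this comparison. Npnt, the nephronectin gene, read 1.89 at E8.75, 2.59 (rostral) and 4.92 (caudal) at E9.5, 4.30 and 4.62 at E10.5 and 4.87 in the E11.5 bud, against 1.18 and 1.26 in Wt1-GFP cells. Every duct array was above both Wt1-GFP arrays, and the E8.75 and E9.5 rostral arrays were the lowest of the duct. The E9.5 difference was 5.82-fold (log2 2.54, standard error 0.67, limma adjusted p = 0.33). A second Npnt probe, also the dimmer of the pair, read 0.74 and 2.43 in E9.5 duct and -1.82 and -0.68 in Wt1-GFP cells, the same order. Itga8, the receptor's alpha chain, read -1.15 at E8.75, -1.93 and -6.84 at E9.5, -4.76 and -6.04 at E10.5 and -6.54 at E11.5, with 0.47 and 1.12 in Wt1-GFP cells. It was well above background on 4 arrays only: both Wt1-GFP arrays, E8.75 and E9.5 rostral. Measured against the dimmest well-measured probe where an array was below background, it was at least 18.9-fold higher in Wt1-GFP cells (fitted log2 -5.18, standard error 1.48, limma adjusted p = 0.34). With 1 array left out at a time, that fitted log2 difference ran from -7.47 to -2.88. The partner chain of Itga8, Itgb1, ranged over 0.49 log2 units on all 8 arrays.

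The sequences upstream of Itga8 and Npnt are shown because this receptor and ligand differed in opposite directions, and that of Frem2 because it was on Npnt's side; they are the 250 bases before the annotated start in RefSeq (GRCm38.p6), on the gene's strand, and capitals mark a match to the AP-2 motif GCCNNNGGC (Itga8, Npnt) or the grainyhead motif AACNGGTT (Frem2). Itga8 lies at chr2:12301945-12302194 (minus strand), Npnt at chr3:132950292-132950541 (minus strand, the more upstream of its windows) and Frem2 at chr3:53657356-53657605 (minus strand).
Itga8: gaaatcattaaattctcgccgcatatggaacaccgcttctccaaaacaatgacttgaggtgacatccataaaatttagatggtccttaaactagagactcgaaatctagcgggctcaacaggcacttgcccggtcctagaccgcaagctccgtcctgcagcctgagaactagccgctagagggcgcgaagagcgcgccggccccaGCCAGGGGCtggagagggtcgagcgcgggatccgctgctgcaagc
Npnt: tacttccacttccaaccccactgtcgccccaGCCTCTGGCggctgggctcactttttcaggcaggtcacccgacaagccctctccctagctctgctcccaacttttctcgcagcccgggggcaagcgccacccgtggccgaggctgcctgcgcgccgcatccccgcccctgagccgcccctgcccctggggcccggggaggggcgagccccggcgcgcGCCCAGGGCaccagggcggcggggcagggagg
Frem2: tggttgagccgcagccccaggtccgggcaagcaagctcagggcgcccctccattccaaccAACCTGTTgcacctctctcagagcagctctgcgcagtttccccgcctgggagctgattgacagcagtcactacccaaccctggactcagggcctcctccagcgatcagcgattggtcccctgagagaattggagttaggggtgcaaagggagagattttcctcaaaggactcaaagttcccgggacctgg
Of the 42 members 30 had a window in the table, 36 windows in all, among 32851 windows. On either strand, GCCNNNGGC was in 8 of the 36 (22.2%; 13.7% of all windows), those of Col4a1, Col4a2, Hspg2, Itga11, Itga2, Itga4, Itga8 and Npnt, so it was found on both sides of the comparison. AACNGGTT was in the Frem2 window alone (2.78%; 1.79% of all). Other motifs searched were the E-box CANNTG (69.4%; 66.2% of all), the Sp1 motif GGGCGG (47.2%; 32.7%), the Wt1 motif GTGGGNG (36.1%; 28.1%), the GATA motif AGATAA (0 of 36; 9.99%) and the homeobox motif TAATTA (0 of 36; 4.84%). A match describes the letters of the window and nothing more.

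Egfl6, which encodes a further ligand of integrin alpha8, read -2.82 at E8.75, -2.60 and 0.18 at E9.5, -2.93 and -0.12 at E10.5 and -1.56 at E11.5, with -6.12 and -3.92 in Wt1-GFP cells. All duct arrays were above both Wt1-GFP arrays, and the caudal arrays were the brighter of each duct pair. The rostral Wt1-GFP array was not well above background, so the E9.5 difference is given as at least 6.61-fold (fitted log2 3.80, standard error 0.27, limma adjusted p = 0.17).

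Fras1, Frem1 and Frem2 encode large proteins of one complex under embryonic epithelia, but they did not share a pattern here. Frem2 read 3.05 at E8.75, 3.71 and 5.41 at E9.5, 4.46 and 5.19 at E10.5 and 5.20 at E11.5, with 0.99 and 0.72 in Wt1-GFP cells. No array of the duct overlapped the Wt1-GFP arrays, and the E9.5 difference was 13.0-fold (log2 3.71, standard error 0.55, limma adjusted p = 0.23). Fras1 read -0.57 at E8.75, 1.45 and 2.22 at E9.5, 2.65 and 2.03 at E10.5 and 2.25 at E11.5, with 1.40 and -0.21 in Wt1-GFP cells. The E9.5 difference was 2.36-fold, but the rostral arrays of duct and Wt1-GFP cells lay close together (limma adjusted p = 0.47); the log2 difference went from 1.24 to 0.29 without the E9.5 caudal duct array and to 0.39 without the caudal Wt1-GFP array. Frem1 went the other way, at -0.17 at E8.75, -3.38 and -2.37 at E9.5 and -0.42 and 0.63 in Wt1-GFP cells. It was not well above background in E10.5 duct (-5.83 and -5.96) or the E11.5 bud (-6.42). In Wt1-GFP cells it was 7.87-fold higher than in E9.5 duct (log2 -2.98, standard error 0.40, limma adjusted p = 0.22).

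**Figure D3:**
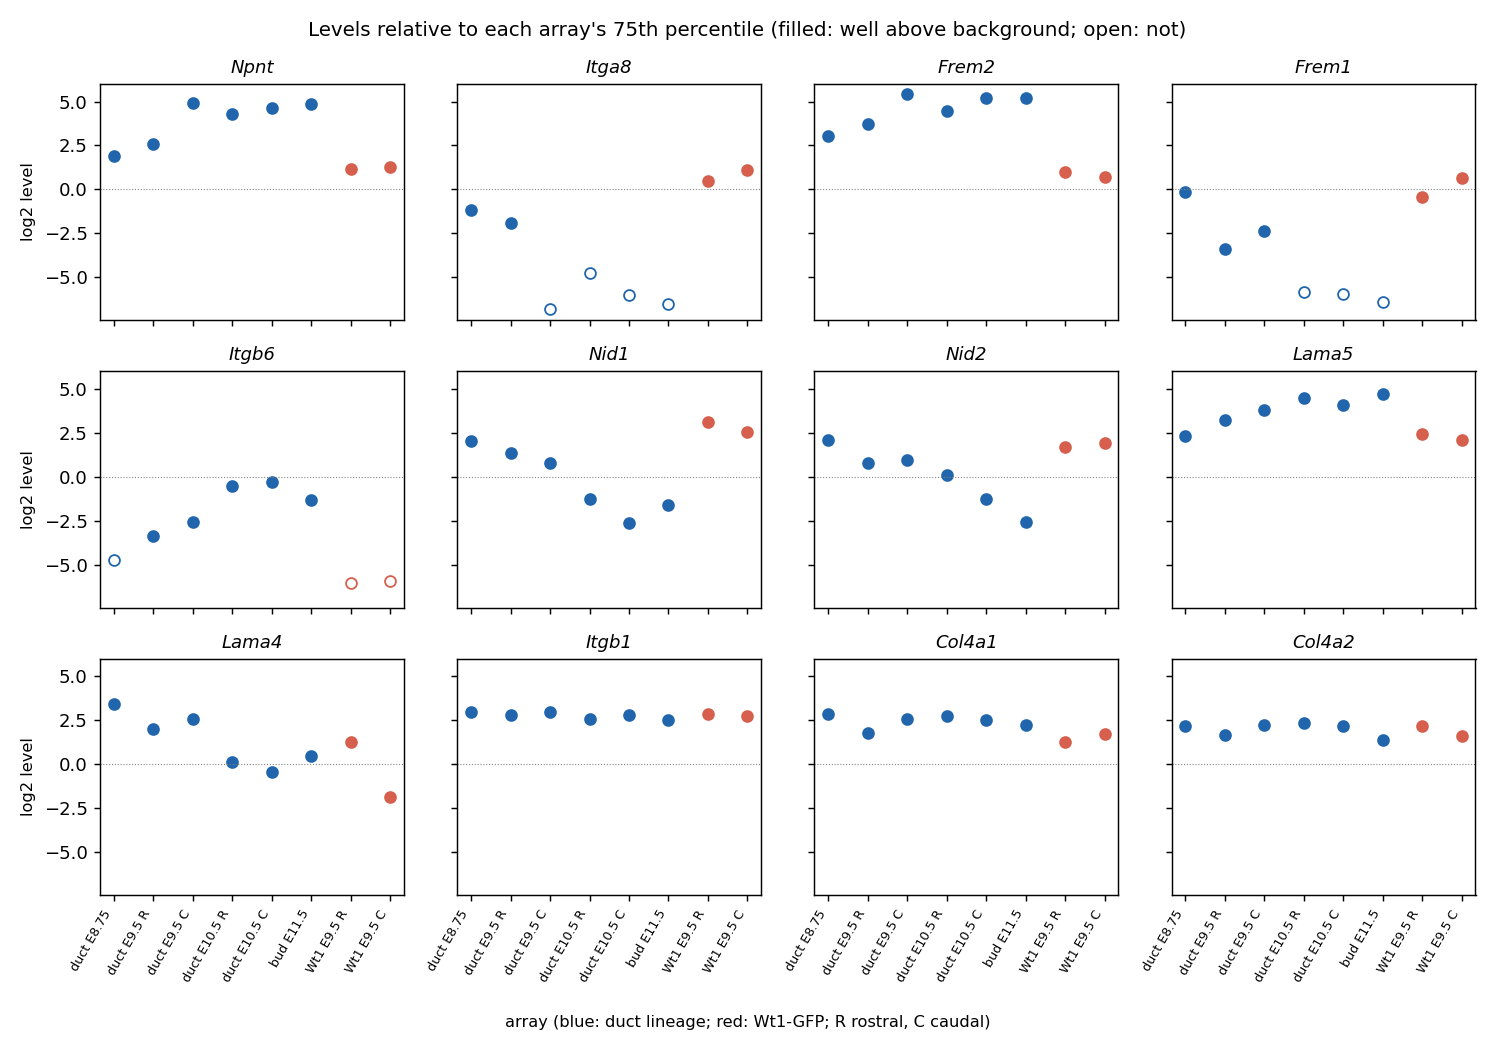
Level of 12 genes on each array (log2 relative to the array's 75th percentile; blue duct lineage, red Wt1-GFP; open symbols not well above background). Npnt and Frem2 are above the red points on every duct array, Itga8 and Frem1 are open on the older duct arrays, Nid1 and Nid2 are lower on the E10.5 and E11.5 arrays than on the earlier duct arrays, and Itgb1 stays between 2.50 and 2.99.

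Among the other integrin alpha chains, Itga6 and Itga1 were on the duct side and Itga9 on the Wt1-GFP side. Itga6, the alpha chain of the laminin receptors alpha6 beta1 and alpha6 beta4, read 5.10 at E8.75, 3.11 and 3.52 at E9.5, 3.40 and 2.54 at E10.5 and 2.64 at E11.5, with 1.76 and 1.49 in Wt1-GFP cells. All 6 duct arrays were above both Wt1-GFP arrays on this probe, by 3.23-fold at E9.5 (log2 1.69, standard error 0.38, limma adjusted p = 0.30).

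The other probe named Itga6 gave the opposite order. It read 3.21 at E8.75, 1.91 and 2.36 at E9.5, 1.88 and 1.64 at E10.5 and 2.14 at E11.5, but 4.37 and 4.66 in Wt1-GFP cells, above every duct array. With the 2 probes averaged, the E9.5 difference was -0.34 rather than 1.69. The array design places the first probe on the protein-coding transcript and the second on a predicted non-coding record of the gene, so which RNA the second one reports is not settled by these data. The second probe's sequence is shown for that reason, at chr2:71690633-71690692 (plus strand, mm9), with its longest run of pyrimidines in capitals.
Itga6 second probe: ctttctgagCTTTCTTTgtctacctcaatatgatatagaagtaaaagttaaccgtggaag

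Itga1, a collagen and laminin receptor chain, read -0.63 at E8.75, -1.49 and -1.03 at E9.5, -2.49 and -2.28 at E10.5 and -3.49 at E11.5, with -2.88 and -3.65 in Wt1-GFP cells. The duct values were lower at each stage from E9.5 on, and the E11.5 bud lay between the Wt1-GFP arrays, and the E9.5 difference was 4.01-fold (limma adjusted p = 0.27). A second Itga1 probe, well above background on 5 arrays, read -2.71 and -2.88 in E9.5 duct and -6.11 and -4.98 in Wt1-GFP cells, the same order. It was lower at E8.75 (-3.71) than at E9.5, and its E10.5 arrays (-3.77 and -2.77) overlapped those of E9.5. Itga9, which binds tenascin and other matrix ligands, read 1.11 at E8.75, 0.62 and -0.42 at E9.5, -1.93 and -0.99 at E10.5 and -3.17 at E11.5, with 1.57 and 1.75 in Wt1-GFP cells. Both Wt1-GFP arrays were above all duct arrays, 2.95-fold above E9.5 duct (limma adjusted p = 0.38), a log2 difference of -1.56 that went to -0.76 without the E9.5 caudal array. Over the 6 duct arrays its fitted slope was -1.56 log2 units per day (standard error 0.26), with an adjusted p of 0.14 in limma and 0.040 when the prior followed the intensity.

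The fibronectin receptor chain Itga5 read -1.20 at E8.75, -2.47 and -2.93 at E9.5, -3.76 and -2.75 at E10.5, -2.71 at E11.5 and -1.88 and -2.45 in Wt1-GFP cells. E8.75 was the highest of these, 2.83-fold above E9.5 (limma adjusted p = 0.36). Itgav, which pairs with several beta chains to bind RGD ligands, read 0.99 at E8.75, 1.04 and 0.92 at E9.5, 2.53 and 1.54 at E10.5, 1.82 at E11.5 and 0.92 and 0.98 in Wt1-GFP cells, so E10.5 duct was 2.08-fold above E9.5 (limma adjusted p = 0.66). Itga3, a laminin receptor chain, ranged from -1.13 to 0.53 on the 8 arrays. Itga4, a chain that binds fibronectin and Vcam1, read -3.36 at E8.75, -2.06 and -3.23 at E9.5, -3.60 and -2.77 at E10.5, -1.24 at E11.5, and -0.61 and -5.01 in Wt1-GFP cells, the last not well above background. The Wt1-GFP pair thus held both the highest and the lowest value, and the bud was 3.85-fold above E10.5 duct (limma adjusted p = 0.66); without the E10.5 rostral array that log2 difference went from 1.94 to 0.14. The collagen receptor chain Itga2 was well above background only at E11.5 (-4.26; other arrays -6.99 to -5.23), at least 1.26-fold above E10.5. Itga11 was so only at E8.75 (-3.16) and in rostral Wt1-GFP cells (-3.50; other arrays -6.54 to -4.84).

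Of the beta chains, Itgb1, the common partner of most alpha chains, was level: 2.99 at E8.75, 2.80 and 2.95 at E9.5, 2.57 and 2.83 at E10.5, 2.50 at E11.5 and 2.88 and 2.72 in Wt1-GFP cells. Its fitted E9.5 difference was 0.07 (standard error 0.23, limma adjusted p = 0.91), and its second probe ranged from 1.64 to 2.64. The beta chains that pair with Itgav were not level. Itgb6, an epithelial chain that activates latent TGF-beta, read -4.77 at E8.75 (not well above background), -3.37 and -2.56 at E9.5, -0.53 and -0.30 at E10.5 and -1.34 at E11.5, and was not well above background in Wt1-GFP cells (-6.04 and -5.92). From E9.5 on each duct array was well above background, while E8.75 and Wt1-GFP cells, all below it, have no order among themselves. The E9.5 difference was at least 2.23-fold (fitted log2 3.02, standard error 0.28, limma adjusted p = 0.17), and E10.5 was 5.84-fold above E9.5 (limma adjusted p = 0.52). A second Itgb6 probe differed: it read -6.74 at E8.75 and -6.72 on the E9.5 caudal array, near its Wt1-GFP values (-6.03 and -6.14), and -3.90 to -2.25 on the other duct arrays. The used Itgb6 probe is printed because it crosses an exon junction, its ends lying 4616 bases apart at chr2:60438632-60443247 (minus strand, mm9), so it reads spliced RNA.
Itgb6 probe: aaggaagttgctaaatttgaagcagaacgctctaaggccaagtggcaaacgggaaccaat

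Itgb5 was brightest at E8.75 (0.00) and in Wt1-GFP cells (-0.52 and -0.06), and lower at E9.5 (-1.87 and -1.63), E10.5 (-1.84 and -1.68) and E11.5 (-0.87). It was 2.76-fold higher in Wt1-GFP cells than in E9.5 duct (limma adjusted p = 0.23). Itgb3 read -0.13 at E8.75, 0.11 and 1.58 at E9.5, 0.04 and 1.05 at E10.5, -0.18 at E11.5 and -0.65 and -0.46 in Wt1-GFP cells, with both caudal duct arrays the brightest; E9.5 duct was 2.64-fold higher (limma adjusted p = 0.34). Its second probe also read higher in E9.5 duct (-0.90 and 3.46) than in Wt1-GFP cells (-2.68 and -1.73), but at E8.75 it read 1.97, above all duct arrays other than E9.5 caudal. Itgb4, the partner of alpha6 in hemidesmosomes, ranged from -1.51 to 0.03 with its highest value in the bud. Itgb8 is taken up with position below.

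Among laminin chains Lama5, Lamc1 and Lama4 read higher in E9.5 duct than in Wt1-GFP cells, and the alpha chains differed from each other over time. At E8.75 Lama5 and Lamc1 each lay between the Wt1-GFP arrays. Lama5, the alpha chain of laminin-511, read 2.32 at E8.75, 3.24 and 3.79 at E9.5, 4.50 and 4.09 at E10.5 and 4.71 at E11.5, with 2.41 and 2.11 in Wt1-GFP cells. Each stage from E9.5 on was above Wt1-GFP cells, by 2.38-fold at E9.5 (limma adjusted p = 0.33). Its slope over the duct arrays was 0.85 log2 units per day (standard error 0.16), with an adjusted p of 0.16 in limma and 0.038 with the intensity prior.

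Lama1, the alpha chain of laminin-111, read -0.42 at E8.75, 1.09 and 1.24 at E9.5, 1.99 and 1.62 at E10.5 and 1.52 at E11.5, with 0.09 and 0.47 in Wt1-GFP cells. It was 3.00-fold higher at E9.5 than at E8.75 (limma adjusted p = 0.25). Lama4, the alpha chain of vessel and mesenchyme basement membranes, ran the other way: 3.43 at E8.75, 1.99 and 2.60 at E9.5, 0.15 and -0.42 at E10.5, 0.49 at E11.5 and 1.28 and -1.84 in Wt1-GFP cells. E8.75 was the highest array and the Wt1-GFP pair spanned the E10.5 and E11.5 duct values. E9.5 duct was 5.95-fold above Wt1-GFP cells (limma adjusted p = 0.40) and 5.39-fold above E10.5 duct (limma adjusted p = 0.71). Without the caudal Wt1-GFP array the first log2 difference went from 2.57 to 1.01, and without the E9.5 caudal array the second went from -2.43 to -1.20. Without the E9.5 rostral array the step from E8.75 to E9.5, -1.14 with it, became 0.09. The endothelial marker list moved in the same directions: its members' median difference was -3.08 from E8.75 to E9.5, with 10 of 10 lower, -1.02 from E9.5 to E10.5, with 4 of 10 separated, and 1.62 between E9.5 duct and Wt1-GFP cells, with 6 of 10 higher in the duct. On the E8.75 array all 10 of these markers were well above background. Their part in the Lama4, Itga6, Itga5 and Itga1 values was not tested.

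Lamb1 and Lamc1, the beta and gamma chains that most laminins share, were measured on every array, each highest on the E10.5 rostral one. Lamb1 ranged from 2.42 to 4.13. Lamc1 read 2.75 at E8.75, 3.63 and 3.80 at E9.5, 4.84 and 4.26 at E10.5, 4.22 at E11.5 and 2.89 and 2.42 in Wt1-GFP cells, and was 2.08-fold higher in E9.5 duct than in Wt1-GFP cells (limma adjusted p = 0.33). Lamb2, the beta chain of mature basement membranes, read -3.11 at E8.75, -0.65 and -0.40 at E9.5, 0.01 and -0.66 at E10.5, -1.04 at E11.5 and -0.64 and -1.72 in Wt1-GFP cells, 6.0-fold higher at E9.5 than at E8.75 (limma adjusted p = 0.24). Lama2, the muscle laminin alpha chain, read -0.95 at E8.75, -0.91 and -3.25 at E9.5, -1.12 and -0.34 at E10.5, -4.25 in the bud (not well above background) and -0.19 and -1.85 in Wt1-GFP cells. Its E9.5 caudal and bud arrays stood apart as low, and the bud was lower than E10.5 duct by a fitted log2 difference of -3.53 (standard error 1.07, limma adjusted p = 0.38).

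Lama3 and Lamb3, chains of an anchoring laminin of stratified epithelia, differed in spread. Lama3 stayed between -2.51 and -1.67 on its used probe; a second one read -1.46 in rostral Wt1-GFP cells and -6.97 to -6.08 elsewhere. Lamb3 was well above background only at E8.75 (-4.34) and E10.5 (-1.67 and -3.50); it read -4.89 and -6.43 at E9.5, -4.83 at E11.5 and -3.94 and -5.49 in Wt1-GFP cells. E10.5 was at least 4.83-fold above E9.5 and at least 4.65-fold above the bud (limma adjusted p = 0.52 and 0.27).

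Collagen IV chains are encoded by 3 pairs of neighbouring genes, and none of the 5 tested chains had separated arrays between E9.5 duct and Wt1-GFP cells. Col4a1 read 2.88 at E8.75, 1.78 and 2.60 at E9.5, 2.73 and 2.51 at E10.5, 2.26 at E11.5 and 1.29 and 1.72 in Wt1-GFP cells. Col4a2 read 2.20, then 1.65 and 2.21, 2.37 and 2.20, and 1.40, with 2.18 and 1.63 in Wt1-GFP cells. The fitted E9.5 difference was 0.68 (standard error 0.34) for Col4a1 and 0.02 (0.35) for Col4a2, neither past limma's test (adjusted p = 0.45 and 0.98). These are the chains of the ubiquitous collagen IV trimer, and their genes start head to head: the annotated starts lie so that the first 22 bases of both transcripts cover the same stretch of GRCm38.p6, chr8:11312805-11312826, shown here on the plus (Col4a2) strand.
Col4a1-Col4a2 shared start: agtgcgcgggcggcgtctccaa

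Col4a5 and Col4a6, whose starts lie 1343 bases apart on the X chromosome in opposite directions, differed in spread. Col4a5 ranged from -1.37 to -0.09. Col4a6 read 2.03 at E8.75, -0.69 and 0.99 at E9.5, -1.15 and -1.27 at E10.5, 0.49 at E11.5 and 0.65 and -1.28 in Wt1-GFP cells; it was 3.68-fold lower at E9.5 than at E8.75, 2.57-fold lower at E10.5 than at E9.5 and 3.25-fold higher in the bud than at E10.5 (limma adjusted p = 0.50, 0.82 and 0.58). Without the E9.5 rostral array the first log2 difference went from -1.88 to -0.53, and without the E9.5 caudal array the second went from -1.36 to -0.01. Its second probe did not show this and stayed between -1.28 and -0.55. Of the chains of the mature glomerular membrane, Col4a3 was not well above background on any array and Col4a4 stayed between -2.01 and -1.59 on its used probe. The Col4a4 probes, 3 in all, did not match in detection. Besides the used probe, another read -4.89 to -2.66 and was well above background on 5 arrays, and the last was so on 0.

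The nidogens, which bridge laminin and collagen IV, were lower on the older duct arrays. Agrin was brighter in the duct from E9.5 on than in Wt1-GFP cells. Nid1 read 2.02 at E8.75, 1.34 and 0.81 at E9.5, -1.25 and -2.63 at E10.5 and -1.61 at E11.5, with 3.14 and 2.55 in Wt1-GFP cells. Both Wt1-GFP arrays were above all 6 duct arrays. Wt1-GFP cells were 3.41-fold above E9.5 duct (limma adjusted p = 0.26), and E9.5 duct was 8.08-fold above E10.5 (adjusted p = 0.52). Its slope in the duct was -1.49 log2 units per day (standard error 0.15), with an adjusted p of 0.10 in limma and 0.018 with the intensity prior. On the other 2 Nid1 probes the duct arrays from E9.5 on were again below both Wt1-GFP arrays, but E8.75 was above them (2.12 against 1.67 and 2.02, and 1.25 against 0.54 and 0.71). The used Nid1 probe crosses exon junctions, its ends lying 25855 bases apart at chr13:13530138-13555992 (plus strand, mm9), and is printed because the nidogen values rest on it.
Nid1 probe: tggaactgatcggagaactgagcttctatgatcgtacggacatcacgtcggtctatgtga

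Nid2 read 2.10 at E8.75, 0.79 and 0.97 at E9.5, 0.09 and -1.28 at E10.5 and -2.55 at E11.5, with 1.67 and 1.93 in Wt1-GFP cells. Each stage was below the one before, by 2.32-fold, 2.78-fold and 3.88-fold, with a slope of -1.67 log2 units per day (standard error 0.24; limma adjusted p = 0.13, or 0.030 with the intensity prior). Beside these values, the summed fibroblast-like mesenchyme markers were 2.26 at E8.75, 3.40 and 2.46 at E9.5, 0.92 and 0.78 at E10.5, 1.78 at E11.5 and 6.24 and 5.32 in Wt1-GFP cells. Of the 8 markers, 3 were higher at E9.5 than at E8.75 with none lower, 7 were lower at E10.5 than at E9.5, and 3 were higher and 2 lower in the bud than at E10.5. Pdgfra, Twist1, Prrx1, Snai2, Col1a1 and Col3a1 were each not well above background on 1 or 2 of the E10.5 and E11.5 arrays. The part of such cells in the Nid1, Nid2, Frem1, Itga8 and Itga9 values was not tested.

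Agrn, the agrin gene, read 2.25 at E8.75, 4.0 and 3.86 at E9.5, 4.37 and 3.53 at E10.5, 3.97 at E11.5 and 2.37 and 2.53 in Wt1-GFP cells. All duct arrays from E9.5 on were above the Wt1-GFP and E8.75 arrays, by 2.79-fold over Wt1-GFP cells (limma adjusted p = 0.30) and 3.20-fold over E8.75 (limma adjusted p = 0.26). A second Agrn probe kept that order. Hspg2, which encodes perlecan, ranged from 1.5 to 3.27 on its used probe, with no separated step. Its second probe, well above background on all 8 arrays, differed. Both E9.5 duct arrays (1.92 and 1.69) lay above both Wt1-GFP arrays (0.68 and 0.39) on it, a log2 difference of 1.27. The E11.5 bud (0.88) lay below both E10.5 arrays (2.66 and 2.2) on that probe, a difference of -1.55.

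When all 6 duct arrays were set against both Wt1-GFP arrays, Itga6, Itgb6, Npnt, Frem2 and Egfl6 were separated on the duct side (5 of 39; 3.58% of all genes) and Itga8, Itga9 and Nid1 on the Wt1-GFP side (3 of 39; 2.54%), with Itgb6 below background on the E8.75 and Wt1-GFP arrays. These calls are of the used probes. On the other Itga6 probe both Wt1-GFP arrays lay above every duct array. On the other Itgb6 probe the groups overlapped, and on the other Nid1 probes E8.75 lay above both Wt1-GFP arrays. Without the E8.75 array the counts of separated members were 13 and 6. The first was 8 without the E9.5 rostral duct array. It also rose without either Wt1-GFP array, as did the second without the caudal one. Separation is easier to meet for any gene when fewer arrays are compared, so these rises are not a result about the members.

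From E8.75 to E9.5 Itga2, Itgb6, Lama1, Lama5, Lamb2, Agrn, Npnt, Fras1, Frem2 and Egfl6 were separated upward (10 of 39; 11.8% of all genes) and Itga5, Itga6, Itga8, Itga9, Itga11, Itgb5, Lama4, Lamb3, Col4a6, Nid2 and Frem1 downward (11 of 39; 10.7%; 7 with normexp). Itga2 was below background on all 3 of those arrays and has no fold. Examples are Fras1 at 5.29-fold and Npnt at 3.66-fold higher, and Frem1 at 6.50-fold, Itga6 at 3.44-fold and Itgb5 at 3.37-fold lower. Itga11 was at least 3.25-fold lower and Itga8 at least 4.92-fold, but without the E9.5 caudal array the fitted log2 difference of Itga8 went from -3.24 to -0.94, that of Itga9 from -1.01 to -0.21 and that of Npnt from 1.87 to 0.81. The members' median difference was -0.01 and that of all genes -0.02; no gene (0%) passed limma's test, with 12 members and 4602 genes at an unadjusted p under 0.05. E8.75 is a single array from cells sorted without a stated Flk1 selection, so stage and selection cannot be told apart at this step. Of 10 visceral and gut endoderm markers 9 were also lower at E9.5 than at E8.75 (median -4.97); their summed signal was 3.13 at E8.75 and -1.29 to 0.29 on every other array, and their part in these differences was not tested. These comparisons share their E9.5 arrays with those before and after.

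From E9.5 to E10.5 Itgav, Itgb6 and Lamb3 were separated upward (3 of 39; 4.66% of all genes) and Itga1, Itga9, Lama4, Col4a6, Nid1, Nid2 and Frem1 downward (7 of 39; 4.37%). Frem1 was at least 3.27-fold lower. The upward count rose without either E9.5 array, where a single array makes separation easier for any gene. From E10.5 to the E11.5 bud Itga2, Itga4 and Col4a6 were separated upward (3 of 39; 10.7%) and Itga1, Itga8, Itga9, Itgb8, Lama2, Lamb3 and Nid2 downward (7 of 39; 9.93%); Itga8 was below background on all of those arrays. With normexp background correction the counts at the bud step were 1 upward and 2 downward, and 1 was upward from E9.5 to E10.5. No gene (0%) passed limma's test at either step, with 7 members and 2204 genes, then 5 members and 3715 genes, at an unadjusted p under 0.05.

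Fitted as a line over embryonic day in the duct, no gene passed limma's test (0%; lowest adjusted p = 0.10; 16 members and 4711 genes at an unadjusted p under 0.05). With the intensity prior Itgb6 and Lama5 passed upward (2 of 39; 1.33% of all genes) and Itga9, Nid1, Nid2 and Frem1 downward (4 of 39; 0.941%). Itgb6 was below background on the E8.75 array and Frem1 on the E10.5 and E11.5 arrays, so their slopes are not given.

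Rostral and caudal parts were compared within 3 pairs of arrays. Itgb8, another chain that pairs with Itgav to activate latent TGF-beta, was the only member separated, at -5.30, -4.64 and -3.55 on the rostral arrays of E9.5 duct, E10.5 duct and Wt1-GFP cells and -2.99, -2.65 and -3.08 on the caudal ones. The undivided E8.75 and E11.5 samples read -4.16 and -4.93, the last not well above background. It was at least 2.66-fold higher caudally (1 of 39 members; 0.613% of all genes; limma adjusted p = 0.73), and 0 members were higher rostrally (1.53% of all genes). Without the caudal Wt1-GFP array 5 members were separated on the caudal side, and without the E10.5 caudal array 3 on the rostral side. Fewer arrays make separation easier for any gene, so these counts cannot be set beside the shares above. Egfl6 was lower rostrally in every pair, by -2.78, -2.81 and -2.20, without its arrays being separated across groups. Lamb3 differed the other way by 1.55, 1.83 and 1.54, with most of those arrays below background.

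Some genes differed by position in a single pair. Itga8 was 4.91 log2 units higher rostrally in E9.5 duct, where the caudal array was below background. Npnt was 2.33 units higher caudally there (-2.33) and differed little in the other pairs (-0.32 and -0.08). Lama4 differed by 3.11 in the Wt1-GFP pair and by -0.61 and 0.57 in the duct pairs. No gene (0%) passed limma's test for position (lowest adjusted p = 0.73; 4 members and 2005 genes at an unadjusted p under 0.05) or for a position difference that differed between duct and Wt1-GFP cells (0%; lowest 0.81; 3 members and 1732 genes).

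**Figure D4:**
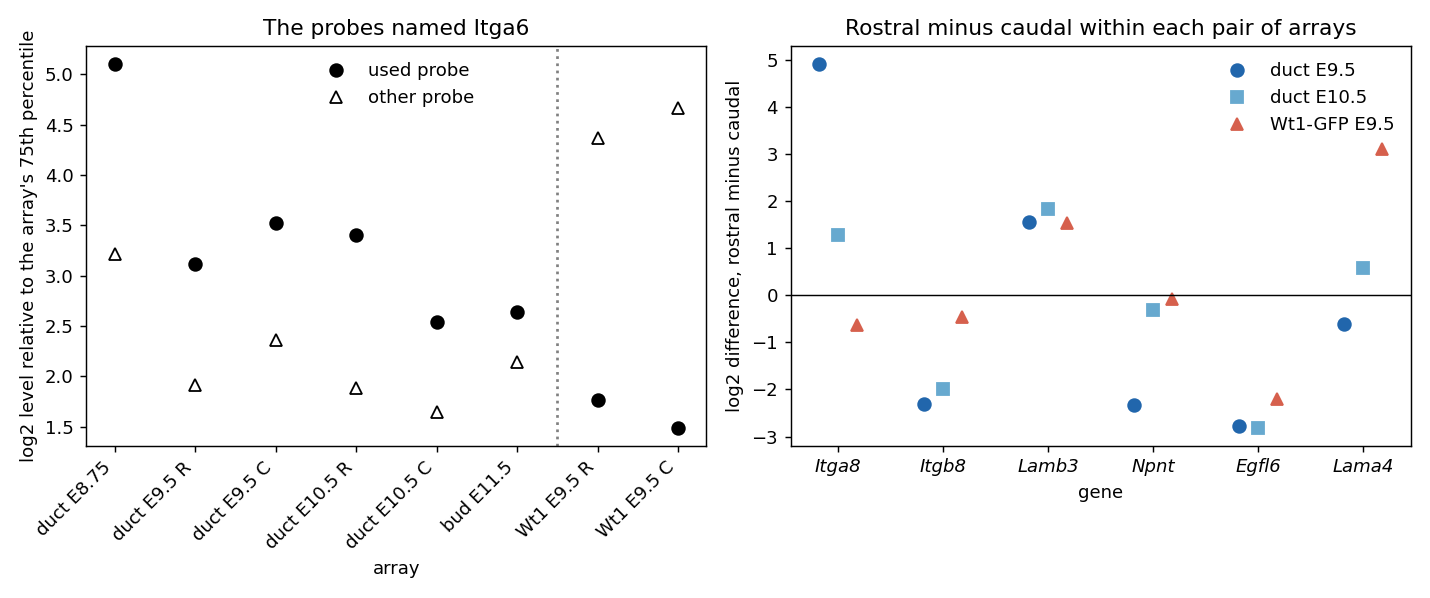
Left, the 2 probes named Itga6 on each array (log2 relative to the array's 75th percentile), with the used probe higher on the duct arrays and the other higher on the Wt1-GFP arrays right of the dotted line. Right, rostral minus caudal level (log2) of 6 genes within each of 3 pairs of arrays; Egfl6 and Itgb8 are below 0 and Lamb3 above 0 in every pair.

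Other genes of the pathway, from lists of genes that are not members, were compared between E9.5 duct and Wt1-GFP cells, and none passed limma's test. Of 13 tested integrin ligands outside the basement membrane, 1 was separated on the duct side and 7 on the Wt1-GFP side. Over all genes those shares were 7.76% and 5.57%. The median difference of the list was -1.86, against -0.05 over all genes. Tgfbi (2.40 and 1.06 in Wt1-GFP cells, -1.12 and -4.39 in E9.5 duct) and the fibrillar collagen gene Col3a1 (4.44 and 3.57 against 1.23 and -1.67) differed most, by 22.4-fold and 18.6-fold (limma adjusted p = 0.21 and 0.23). The brightest of that list, the fibronectin gene Fn1 (4.10 to 6.33) and Fbn2 (3.32 to 4.72), had no separation.

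Of 19 tested other basement membrane components 2 were on the duct side and 6 on the Wt1-GFP side (over all genes, 7.76% and 5.57%). Among the 6 were Sparc and Fbln1, 2.33-fold and 2.52-fold higher in Wt1-GFP cells, and Ntn4, at least 2.30-fold higher there. Of 15 other laminin and collagen receptors 2 were on the duct side and 3 on the Wt1-GFP side, beside the same shares of all genes. Ddr2, a receptor for fibrillar collagen, was 8.43-fold higher in Wt1-GFP cells and Bcam, a receptor for laminin alpha5, 2.50-fold higher in E9.5 duct (0.89 and 1.15 against -0.27 and -0.34; limma adjusted p = 0.25). The brightest genes of that list, Gpc3 and Rpsa, had no separation. Of 7 tested other integrins none was separated; Itgam, a leukocyte chain, read 7.61 to 8.10 on all arrays and was level, as was Itgal, while Itgbl1 was well above background only in rostral Wt1-GFP cells (-0.59) and Itga10 ranged from -5.97 to -1.87 with its highest value in the bud. Itgb2, of the same list, read -1.99 to 0.03 and the blood marker Ptprc -2.19 to -1.69. Whether the Itgam probe reports leukocyte RNA was not tested.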

How the data were processed

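The 8 samples were hybridised to 1-colour Agilent arrays on 1 slide. From 10 ng of RNA a sample, cDNA was amplified and then labelled with Cy3, per the labels. The intensities are the authors' scanner output from Agilent Feature Extraction 10.7.3.1, per the submitters' processing notes and the file headers; no spot was saturated among the 55663 probes used. The deposited log2 table is centred per probe over the arrays (largest probe median 0.005) and correlated at 0.99978 with the scanner values centred the same way; it served as an alternative. Here the log2 of each spot's processed intensity, minus that of the array's 75th percentile, was averaged per probe. Spots flagged as outliers were left out. A gene was tested if any of its probes was well above background on at least 1 array, and by the brightest such probe.

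Limma 3.58.1 in R 4.3.3 fitted 5 group terms and a rostral-caudal term over all 8 arrays (2 residual degrees of freedom; 1 with the position-by-reporter term), with Benjamini-Hochberg adjustment over 29544 genes and a threshold of 0.05; the script was tested on simulated data. Where an array of the dimmer group was not well above background, "at least" folds replace its value by the higher of its own and the array's dimmest well-measured probe. A fold is given only for separated arrays, and from each list of other genes the brightest 2 and the 2 that differed most are named; genes named beyond these were chosen after their values were seen. Some genes that this rule names are not reported here. The members and lists were chosen with earlier results of these data known. Promoter windows and names come from RefSeq (GRCm38.p6), probe positions from the files (mm9).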

Additional observations from a re-analysis of the deposited data

How the results depend on the processing

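Of 1163 recomputed values of 63 named differences in 29 genes, 1147 kept their direction and side of the threshold, 14 kept the direction and passed it, and 2 reversed: Itga6 between E9.5 duct and Wt1-GFP cells (-0.34 with its probes averaged) and Lama4 from E8.75 to E9.5 (0.09 without the E9.5 rostral array; -2.37 without the caudal one). The 63 were named from these same arrays, by separation or by a slope that passed with the intensity prior. In the fit reported 0 of them passed limma's test. A kept direction and side of the threshold was thus likely in advance, and the tally does not measure how reliable the differences are. Members past limma's adjusted p were 0 in the fit reported. With the intensity prior they were 5 (duct against Wt1-GFP, beside 632 of 29544 genes) and 6 (line over day, beside 672). In the other comparisons 0 members passed with that prior, while genes outside the list passed from E8.75 to E9.5. Normexp background correction gave 1 and 8 members, and the line without the position term 1. The shares over all genes at these last settings are not given here, so they are not a result about the members.

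Counts of separated members moved as follows, given without the share over all genes at each setting. Fewer arrays make separation easier to meet for any gene, so a rise with an array left out is not a result about the members. With normexp, 7 were lower from E8.75 to E9.5, 1 higher from E9.5 to E10.5, 1 higher and 2 lower in the bud, and 0 lower rostrally. Quantile normalization gave 8 higher on all 6 duct arrays, and median scaling 1 higher rostrally. Leaving out 1 array at a time gave 5 to 9 lower in E9.5 duct than in Wt1-GFP cells, 3 to 6 higher from E9.5 to E10.5, 0 to 3 higher and 1 to 5 lower rostrally, and 5 to 13 higher and 3 to 6 lower on all 6 duct arrays. The position-by-reporter term could not be fitted with the slide row as a block or without any of the split arrays. The labels give no replicate numbers; the group and position terms already set rostral against caudal within each pair. The number of arrays limits the precision, and values below an array's dimmest well-measured probe have no order.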

Other observations

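Genes for the proteins that join integrins to the cytoskeleton were mostly level between E9.5 duct and Wt1-GFP cells. Of 22 tested, 3 were separated on the duct side and 2 on the Wt1-GFP side (over all genes, 7.76% and 5.57%). Their median difference was -0.13, and none passed limma's test (lowest adjusted p = 0.25). Src, a kinase of focal adhesions, read 0.29 and 0.70 in E9.5 duct and, in Wt1-GFP cells, -1.48 and -1.32, a 3.71-fold difference. Tns1, the tensin gene, was 2.41-fold higher in Wt1-GFP cells, and Vcl, the vinculin gene, ranged from 1.63 to 3.65 with no separation. Cav1, a caveolin gene, read 0.48 and -1.85 in E9.5 duct and -0.82 and -4.00 in Wt1-GFP cells, brighter rostrally in both.

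Of 16 genes that process collagen IV and laminin, 1 was separated on the duct side and 4 on the Wt1-GFP side. Over all genes those shares were 7.76% and 5.57%. The median difference of the list was -0.38, with no call (lowest adjusted p = 0.30 in limma). P4hb and Serpinh1, which help collagen to fold, were bright on every array, at 3.92 to 4.78 and 3.42 to 4.71. Loxl1, an enzyme that crosslinks matrix, read -1.30 and -3.94 in E9.5 duct and 0.01 and -1.44 in Wt1-GFP cells, which overlap.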
